A study of Mus musculus with 56 samples.

Results

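The genes described here encode the machinery that docks, primes and fuses synaptic vesicles: 37 genes chosen by name, which fall into SNARE proteins, synaptotagmins, complexins, synapsins, SV2 proteins, RAB3 proteins, RIM proteins, MUNC13 proteins, active zone scaffolds, vesicle membrane proteins and the proteins that take SNARE complexes apart. A gene was followed through a probe set that the platform annotation assigns to that gene alone, and all 37 genes had such a probe set, as had 22184 genes in all. RNA came from adult male mice on the C57BL/6N background in which the stretch between Sult1a1 and Spn, the mouse counterpart of human 16p11.2, was deleted (Del/+) or duplicated (Dup/+) on 1 chromosome, and from wt mice with the usual 2 copies. Del/+ mice therefore hold 1 copy and Dup/+ mice 3 copies of the interval in every cell, and no gene was targeted in a particular cell type. The striatum and the hippocampus were each sampled from 4 Del/+, 4 Dup/+ and 8 wt mice, and the cerebellum and the liver each from 3 Del/+, 3 Dup/+ and 6 wt mice, with 1 Affymetrix Mouse Gene 2.1 ST array per mouse and tissue (56 arrays). Arrays are named by genotype and mouse number, and number 17 names a Del/+ array of the cerebellum but wt arrays of the liver and hippocampus. The numbers of arrays limit the precision of every value below.

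A synaptic vesicle fuses when a SNARE protein of its own membrane, a VAMP, zips into a complex with syntaxin and SNAP25 of the plasma membrane, and calcium binding to a synaptotagmin sets off the last step. MUNC13 and RIM proteins prepare the complex at the active zone, RAB3 proteins mark the vesicle as ready to dock, complexins clamp and promote fusion, synapsins tether the reserve vesicles, and NSF with the SNAP adaptors pulls spent complexes apart. Most of these proteins come in several isoforms encoded by separate genes, and neurons of different brain regions are known to use different ones.

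The arrays carried the identity given by their labels, with exceptions that touch the results below. The mean of 23 genes of the interval had a slope per copy of 0.51 in the cerebellum, 0.46 in the striatum, 0.46 in the hippocampus and 0.38 in the liver, on the log2 scale, and the genotypes did not overlap in any tissue (exact permutation tests, two-sided, p = 0.000108, 2.22e-06, 2.22e-06 and 0.000108, the smallest these designs allow). Markers of cerebellar neurons averaged 10.27 to 10.44 in wt cerebellum, against 5.42 to 5.87 in wt hippocampus. In the striatum, Dup/+ 21 and Dup/+ 47 had the lowest levels of striatal neuron markers, 9.02 and 9.67 against 10.38 to 10.87 on the other striatal arrays, and all 7 of the measured markers, Drd1 and Drd2 among them, lay below every other array. The same 2 arrays had thalamic neuron markers at 7.96 and 7.63, against 5.64 to 6.50 on the other 14 arrays, with 9 of 10 markers above all of them, Tcf7l2 and Slc17a6 included. In the hippocampus, Dup/+ 47 had striatal markers at 9.60, against 6.36 to 6.73 on the other arrays, with all 7 markers above every other array, and wt 17 had the highest thalamic markers, at 7.99, with 8 of 10 above every other array.

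The members were well measured in brain. Signal is the deposited log2 value of a probe set, and background was taken as the 95th percentile of 1406 olfactory and vomeronasal receptor probe sets, 4.03 in the cerebellum, 4.09 in the striatum, 4.13 in the hippocampus and 3.15 in the liver. All 37 members had a wt mean above it in each brain tissue, with means from 4.86 for Cplx3 to 12.59 for Snap25 in the cerebellum. In the liver 24 members were above background, and Snap25, Syt2, Syt4, Syt5, Syn2, Sv2b, Sv2c, Rab3b, Rab3c, Rims1, Rims2, Unc13c and Syngr1 were not. The liver arrays were normalized on their own, so that no liver level was set against a brain level. In bulk tissue a smaller number of cells of a type and less RNA per cell cannot be told apart.

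Expression of the isoforms differed between wt brain tissues in every family (the plot of tissue differences gives all 37). The filter of the study keeps a probe set when its signal is high enough and its variance over the 44 brain arrays is above the 25th percentile, and it left 30 members and 19389 probe sets. Snap25, Vamp2, Cplx1, Cplx2, Sv2a, Rab3a and Napa were left out for low variance. Since variance over the arrays includes differences between tissues, a member that passed had to vary, and counts over the 30 are read only beside those of the other probe sets that passed.

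In cerebellum against hippocampus, 11 of 30 members were higher and 17 were lower at an adjusted p under 0.05 (limma, Benjamini-Hochberg over all kept probe sets), where 33.4% of all kept probe sets were higher and 26.8% lower. The median difference was -0.43 over the 30 members and 0.11 over all kept probe sets. Over the 6 kept markers of neurons in general it was -0.47, with 4 called lower and 2 higher. A difference of at least 1 on the log2 scale was reached by 5 higher and 5 lower members, against 6.57% and 7.71% of all kept probe sets. Without the filter, 12 of all 37 members were higher and 19 lower, where 20.9% and 15.9% of 41155 probe sets passed, and the median of the 37 was -0.18.

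In striatum against hippocampus, 8 of 30 members were higher and 15 lower, where 15.2% and 16.4% of all kept probe sets passed, with a median of -0.23 over the members and 0.0054 over all kept probe sets. Over the 6 kept markers of neurons in general the median was -0.10, with 2 called lower and 0 higher. Of the members, only Sv2c and Unc13c, both higher, reached a difference of 1. That size was reached by 2.38% of probe sets upward and 2.16% downward. Without hippocampus wt 17 and 44 and striatum wt 29 and 44, the wt arrays with the highest thalamic and cortical markers of their tissue, 4 members reached it: Syt9 (1.03) and Unc13b (-1.09) joined Sv2c (2.71) and Unc13c (2.09), all with the same sign as with every array. Without the filter, 9 of all 37 members were higher and 18 lower, where 8.92% and 9.27% of probe sets passed.

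In cerebellum against striatum, 12 of 30 members were higher and 12 lower, where 33.7% and 26.8% passed, and 4 and 6 members differed by at least 1, against 7.14% and 8.53%. The unfiltered counts were 13 higher and 14 lower of 37, where 21.4% and 16.3% of probe sets passed. Among all 37 members, 12 had their highest wt mean in the cerebellum, 6 in the striatum and 19 in the hippocampus, while 49.8%, 26% and 24.3% of the kept probe sets had theirs in these tissues.

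**Figure D1:**
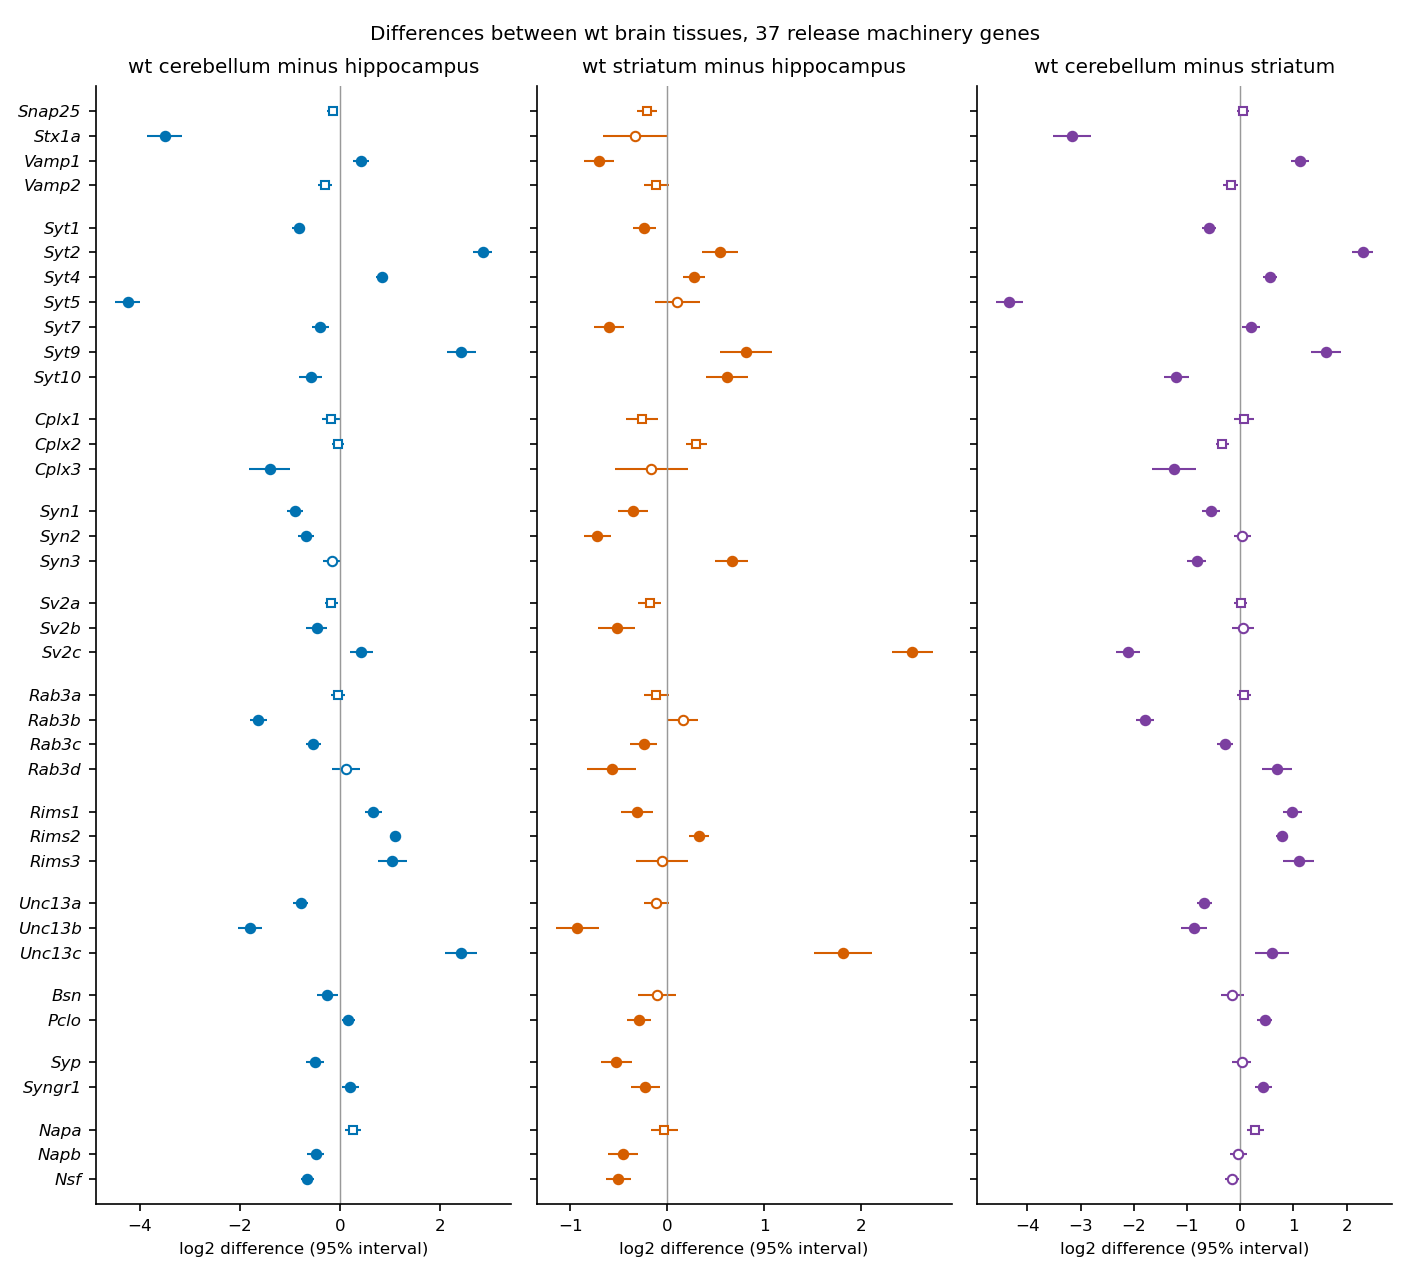
Difference in log2 signal between wt tissues for each of the 37 genes, grouped by family from top to bottom, with 95% intervals (wt cerebellum n = 6, wt striatum and wt hippocampus n = 8 each). Filled circles passed at an adjusted p under 0.05, open circles did not, and open squares are the 7 genes that the filter left out; Syt5 and Stx1a lie at -4.24 and -3.50 and Syt2 at 2.85 in cerebellum minus hippocampus.

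Among the SNARE proteins, Stx1a, which encodes syntaxin-1A of the plasma membrane, was the member with the second lowest signal ratio of cerebellum to hippocampus. Its signal ran from 4.90 to 5.33 (median 5.06) in wt cerebellum, from 7.66 to 9.20 (median 8.09) in wt striatum and from 8.36 to 8.77 (median 8.57) in wt hippocampus. Every cerebellar array lay below every array of the other brain tissues. The difference was -3.50 ± 0.17 (SE) in cerebellum minus hippocampus (adjusted p = 3.05e-14) and -3.17 ± 0.17 in cerebellum minus striatum (adjusted p = 1.64e-13), both by limma. Striatum and hippocampus did not differ at the threshold (-0.34 ± 0.16, adjusted p = 0.121), and the striatal values were spread the most: the cortical neuron markers averaged 8.53 on wt 44 and 8.30 on wt 29, where Stx1a was 9.20 and 8.78, and 7.13 on wt 25, where it was 7.66 (the plot of markers beside members). Of the 9 measured cortical markers, 0 lay above every other striatal array of any genotype on both wt 44 and wt 29. The part of cortical tissue in the spread of Stx1a was not tested.

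Vamp1, which encodes the vesicle SNARE synaptobrevin-1, went the other way. It measured 9.75 to 9.94 (median 9.85) in wt cerebellum, 8.53 to 9.01 (median 8.66) in wt striatum and 9.27 to 9.60 (median 9.41) in wt hippocampus, 3 ranges that do not overlap. The differences were 0.42 ± 0.08 in cerebellum minus hippocampus (adjusted p = 8.05e-05), -0.70 ± 0.07 in striatum minus hippocampus (adjusted p = 6.51e-08) and 1.12 ± 0.08 in cerebellum minus striatum (adjusted p = 2.3e-11). The genes of the other neuronal SNARE proteins, Snap25 and Vamp2, varied too little to pass the filter: their wt means were 12.59 and 9.08 in cerebellum, 12.54 and 9.25 in striatum, and 12.74 and 9.37 in hippocampus.

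The synaptotagmins held the largest contrasts of all. Syt1 and Syt2 encode the fast calcium sensors of release, Syt9 a further fast sensor, Syt7 a sensor of slow, asynchronous release, and Syt4 an isoform whose calcium binding is weak; the names Syt5 and Syt9 have been exchanged in part of the literature, and the symbols here are those of the platform annotation. Syt2 measured 9.76 to 9.92 (median 9.79) in wt cerebellum, 7.31 to 7.80 (median 7.50) in wt striatum and 6.54 to 7.33 (median 6.99) in wt hippocampus. Cerebellum exceeded both other tissues on every array, by 2.85 ± 0.10 against hippocampus (7.2-fold, adjusted p = 2.89e-17) and by 2.30 ± 0.10 against striatum (4.93-fold, adjusted p = 1.13e-15), and striatum exceeded hippocampus by 0.55 ± 0.09 (adjusted p = 2.65e-05).

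Syt9 had the same order of tissues as Syt2. Its signal was 8.66 to 8.87 (median 8.80) in wt cerebellum, 6.81 to 7.42 (median 7.17) in wt striatum and 5.87 to 7.16 (median 6.31) in wt hippocampus, where the highest value was that of wt 17. Cerebellum minus hippocampus was 2.43 ± 0.14 (adjusted p = 6.19e-13), striatum minus hippocampus 0.81 ± 0.13 (adjusted p = 2.4e-05) and cerebellum minus striatum 1.61 ± 0.14 (adjusted p = 7.77e-10). Syt4 followed the order at a smaller scale on its brightest probe set, but not in striatum against hippocampus on 1 of its other probe sets (-0.30), with 9.76 to 9.91 in wt cerebellum, 9.17 to 9.35 in wt striatum and 8.85 to 9.16 in wt hippocampus, and differences of 0.84 ± 0.06, 0.28 ± 0.06 and 0.56 ± 0.06 in the same 3 contrasts.

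Syt5 was the gene with the lowest ratio in the cerebellum. It measured 6.00 to 6.95 (median 6.59) in wt cerebellum, 10.60 to 11.16 (median 10.83) in wt striatum and 10.51 to 10.90 (median 10.74) in wt hippocampus. The cerebellar arrays were far below all others, at -4.24 ± 0.12 against hippocampus (a ratio of 0.0531, adjusted p = 1.8e-18) and -4.34 ± 0.12 against striatum (a ratio of 0.0493, adjusted p = 8.82e-19), while striatum minus hippocampus was 0.11 ± 0.11 (adjusted p = 0.541). Syt1 was lower in the cerebellum as well, with 11.203 to 11.445 (median 11.23) against 11.72 to 12.03 (median 11.84) in wt striatum and 11.94 to 12.25 (median 12.08) in wt hippocampus, a difference of -0.82 ± 0.06 from hippocampus (adjusted p = 1.12e-10). The fast sensor genes went in opposite directions between cerebellum and hippocampus, Syt2 and Syt9 up and Syt1 down.

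The remaining synaptotagmins had orders of their own. Syt10 was highest in striatum: it measured 7.42 to 7.81 (median 7.50) in wt cerebellum, 8.24 to 9.08 (median 8.81) in wt striatum and 7.74 to 8.37 (median 8.19) in wt hippocampus. Striatum minus hippocampus was 0.62 ± 0.10 (adjusted p = 4.62e-05) and cerebellum minus striatum -1.20 ± 0.11 (adjusted p = 2.79e-09). Syt7 was highest in wt hippocampus, with 8.86 to 9.26 in wt cerebellum, 8.59 to 9.02 in wt striatum and 9.27 to 9.64 in wt hippocampus, and striatum minus hippocampus was -0.60 ± 0.08 (adjusted p = 8.89e-07).

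**Figure D2:**
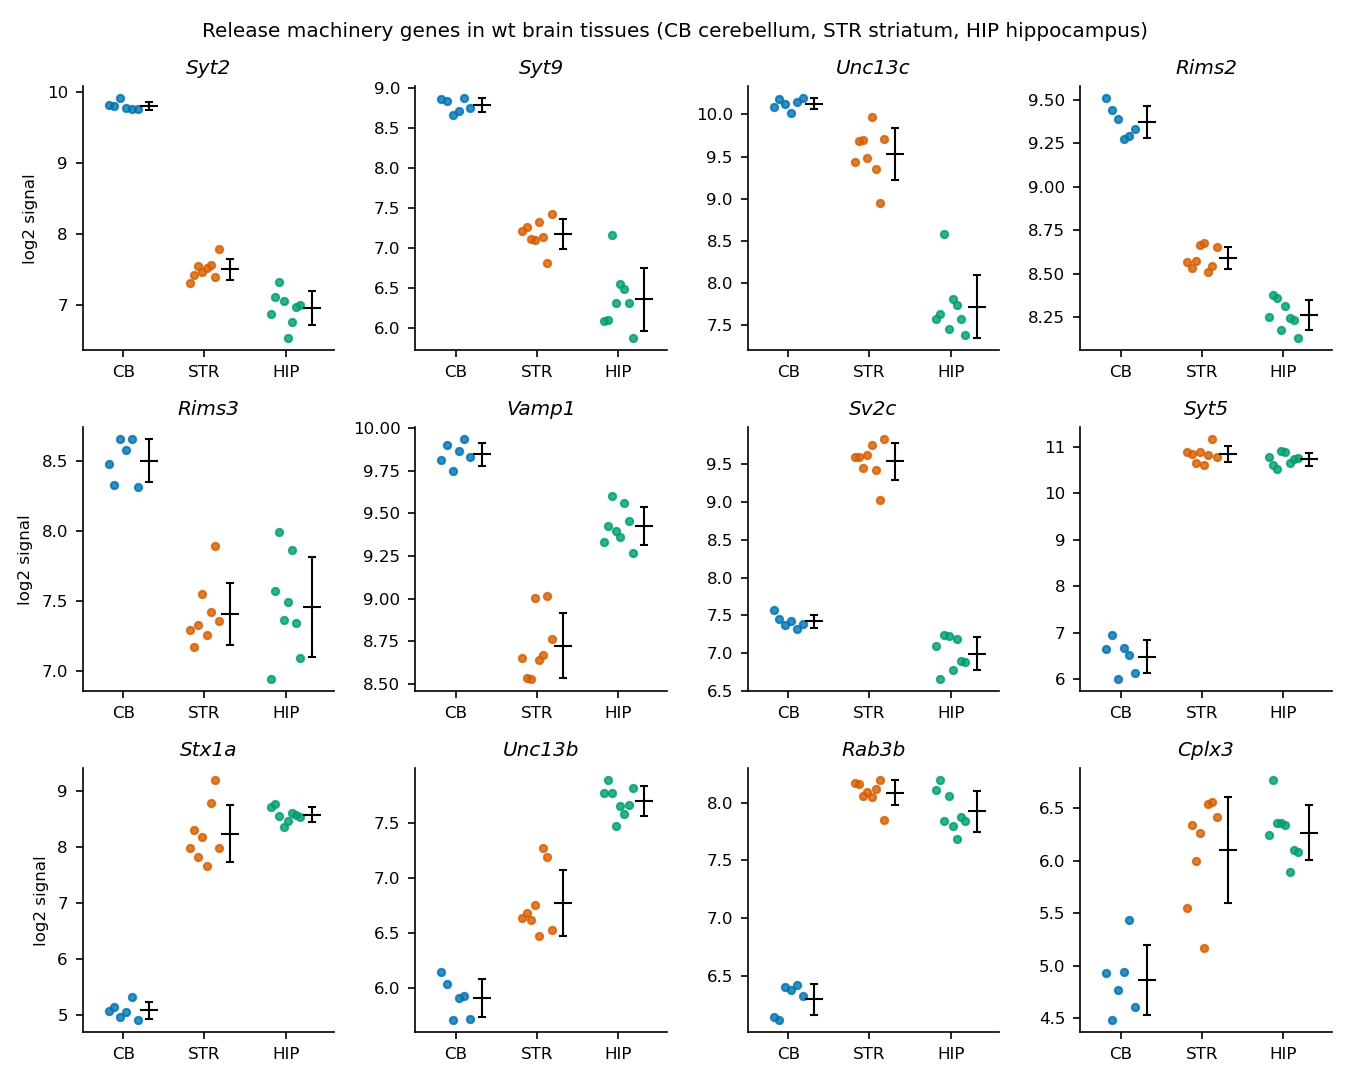
Log2 signal of 12 genes on each wt array of the cerebellum (CB, n = 6), striatum (STR, n = 8) and hippocampus (HIP, n = 8), with the mean and SD as the black bar; each panel has its own axis, which does not start at 0. Syt2 and Syt9 are highest on all cerebellar arrays, Sv2c on all striatal arrays, and Syt5, Stx1a and Rab3b are lowest on all cerebellar arrays.

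Of the MUNC13 proteins, which open syntaxin for priming, Unc13c had the opposite tissue order to Unc13a and Unc13b. Unc13c, which encodes Munc13-3, an isoform known from cerebellar granule cells, measured 10.02 to 10.20 (median 10.14) in wt cerebellum, 8.95 to 9.97 (median 9.58) in wt striatum and 7.39 to 8.58 (median 7.60) in wt hippocampus. Cerebellum minus hippocampus was 2.41 ± 0.15 (5.31-fold, adjusted p = 3.75e-12), striatum minus hippocampus 1.82 ± 0.14 (3.52-fold, adjusted p = 5.25e-10) and cerebellum minus striatum 0.59 ± 0.15 (adjusted p = 0.00203). The highest hippocampal value was again that of wt 17, without which striatum minus hippocampus was 1.94, and the part of its thalamic markers in the value was not tested.

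Unc13b, which encodes Munc13-2, had the reverse order. It measured 5.70 to 6.14 (median 5.92) in wt cerebellum, 6.47 to 7.27 (median 6.66) in wt striatum and 7.47 to 7.89 (median 7.71) in wt hippocampus, and the 3 ranges do not overlap. The differences were -1.79 ± 0.12 (adjusted p = 4.74e-12) in cerebellum minus hippocampus, -0.93 ± 0.11 (adjusted p = 2.56e-07) in striatum minus hippocampus and -0.86 ± 0.12 (adjusted p = 8.41e-07) in cerebellum minus striatum. Unc13a, the gene of the widespread isoform Munc13-1, was lower in cerebellum (9.01 to 9.37) than in striatum (9.76 to 10.09) and hippocampus (9.97 to 10.28), and striatum minus hippocampus did not pass the threshold (-0.11 ± 0.06, adjusted p = 0.218).

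All 3 RIM genes of the list, Rims1, Rims2 and Rims3, were higher in cerebellum than in either other tissue. The differences from hippocampus were 0.67 ± 0.08 for Rims1 (adjusted p = 3.68e-07), 1.11 ± 0.06 for Rims2 (adjusted p = 4.41e-14) and 1.05 ± 0.14 for Rims3 (adjusted p = 8.9e-07), and those from striatum were 0.98 ± 0.08, 0.78 ± 0.06 and 1.10 ± 0.14. Rims3, the gene of the short isoform RIM3 gamma, measured 8.31 to 8.66 in wt cerebellum, 7.17 to 7.89 in wt striatum and 6.939 to 7.997 in wt hippocampus, so that only the cerebellum stood apart. In striatum against hippocampus the family split: Rims1 was lower (8.99 to 9.60 in striatum, 9.47 to 9.68 in hippocampus, -0.31 ± 0.08, adjusted p = 0.00339) and Rims2 higher (8.51 to 8.68 in striatum, 8.13 to 8.38 in hippocampus, 0.33 ± 0.05, adjusted p = 1.76e-05). Of the large active zone scaffolds, Pclo was higher (0.17 ± 0.07, adjusted p = 0.0312) and Bsn lower (-0.25 ± 0.10, adjusted p = 0.041) in cerebellum than in hippocampus. Both are near the threshold, and the ranges overlap for each, with Pclo at 9.84 to 10.05 in cerebellum and 9.70 to 9.97 in hippocampus and Bsn at 8.14 to 8.68 in cerebellum and 8.57 to 9.18 in hippocampus.

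Among the vesicle proteins, Sv2c had the largest difference between striatum and hippocampus of the whole list. It was among the 6 members with their highest wt mean in the striatum. SV2 proteins are glycoproteins of the vesicle membrane, and SV2C is known from the basal ganglia. Sv2c measured 7.32 to 7.57 (median 7.41) in wt cerebellum, 9.02 to 9.82 (median 9.59) in wt striatum and 6.66 to 7.24 (median 6.998) in wt hippocampus. Striatum minus hippocampus was 2.53 ± 0.10 (5.78-fold, adjusted p = 6.48e-15), cerebellum minus striatum -2.10 ± 0.11 (adjusted p = 9.1e-14) and cerebellum minus hippocampus 0.43 ± 0.11 (adjusted p = 0.00192). Sv2b was highest in hippocampus instead, at 10.71 to 10.89 in cerebellum, 10.43 to 11.29 in striatum and 11.15 to 11.43 in hippocampus. The differences from hippocampus were -0.47 ± 0.10 for cerebellum (adjusted p = 0.000299) and -0.52 ± 0.09 for striatum (adjusted p = 8.41e-05).

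The synapsins divided in the striatum. Syn3 measured 8.35 to 8.70 (median 8.602) in wt striatum and 7.63 to 8.14 (median 7.91) in wt hippocampus and was higher by 0.67 ± 0.08 (adjusted p = 5.58e-07). Syn2 measured 10.22 to 10.67 (median 10.36) in wt striatum and 10.93 to 11.31 (median 11.17) in wt hippocampus and was lower (-0.72 ± 0.07, adjusted p = 1.32e-08). Syn1 was lower too (-0.35 ± 0.07, adjusted p = 0.000529), with 10.24 to 10.83 in striatum and 10.84 to 11.22 in hippocampus. None of the 3 genes had striatal and hippocampal ranges that overlap.

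RAB3 genes also parted. Rab3b measured 6.11 to 6.42 (median 6.35) in wt cerebellum, 7.85 to 8.19 (median 8.10) in wt striatum and 7.68 to 8.19 (median 7.86) in wt hippocampus. Cerebellum minus hippocampus was -1.63 ± 0.08 (adjusted p = 4.97e-14) and cerebellum minus striatum -1.79 ± 0.08 (adjusted p = 7.49e-15), and every cerebellar array lay below all others. Rab3d was higher in cerebellum (5.68 to 6.60) than in striatum (5.18 to 5.95) by 0.69 ± 0.13 (adjusted p = 0.0001), with overlapping ranges, and Rab3c lower, with 8.83 to 9.35 in cerebellum and 9.19 to 9.45 in striatum (-0.29 ± 0.07, adjusted p = 0.0013). Cplx3, the only complexin that passed the filter, was lower in cerebellum (4.48 to 5.44) than in striatum (5.17 to 6.56) and hippocampus (5.89 to 6.77), with differences of -1.24 ± 0.20 from striatum (adjusted p = 8.87e-06) and -1.40 ± 0.20 from hippocampus (adjusted p = 1.76e-06).

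The genes of vesicle membrane proteins and of SNARE disassembly shifted less. Syp, which encodes synaptophysin, was lower in cerebellum (-0.49 ± 0.08, adjusted p = 2.39e-05) and in striatum (-0.53 ± 0.08, adjusted p = 9.53e-06) than in hippocampus, with 10.32 to 10.61, 10.17 to 10.77 and 10.86 to 11.07 in the 3 tissues. Syngr1, which encodes synaptogyrin, was higher in cerebellum (0.21 ± 0.08, adjusted p = 0.0257), with 6.60 to 6.96 in cerebellum and 6.29 to 6.76 in hippocampus. Nsf and Napb, which encode the disassembly ATPase and an adaptor for it, were both lower in cerebellum (-0.65 ± 0.07 and -0.49 ± 0.08) and in striatum (-0.50 ± 0.06 and -0.45 ± 0.07) than in hippocampus. The 7 members left out by the filter differed by -0.33 (Cplx2, cerebellum minus striatum) to 0.30 (Cplx2, striatum minus hippocampus) in the 3 contrasts. Syt4, Rab3c, Rab3d, Bsn and Syp have further probe sets of lower signal (means of 3.28 to 5.28 over the brain arrays), which did not repeat all calls: the Rab3c one differed by -0.05, -0.01 and -0.04 in the 3 contrasts and passed in none, nor did those of Rab3d, Bsn and Syp, while both of Syt4 were higher in cerebellum than in the other tissues (0.36 to 0.66). In striatum minus hippocampus the further Syt4 probe sets measured -0.30 (adjusted p = 0.0842 without the filter) and 0.02. The further probe sets of Rab3d (3.28) and Syp (3.51), and the Syt4 one at 0.02 (3.70), had brain means below background in each brain tissue (4.03 to 4.13). They also failed the filter, so they neither repeat nor contradict a call.

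Promoter windows are shown for 4 of the genes with the strongest tissue contrasts, since each isoform is transcribed from a promoter of its own. Each line runs 5′ to 3′ on the strand of the gene, from 250 bases before to 50 bases after a transcription start of RefSeq (build GRCm38.p6), and capitals mark the GC box motif GGGCGG on either strand. Of the 37 members, 30 matched by symbol, and Syt2 has 2 listed starts. The listed start of Unc13c lies inside the annotated span of the gene (chr9:73479422-74008155), so its window is not at the annotated 5′ end. The same holds for the second start of Syt2 (annotated span chr1:134646534-134753149), while the window of its first start includes the annotated 5′ end.
Stx1a, chr5:135023232-135023531, plus strand: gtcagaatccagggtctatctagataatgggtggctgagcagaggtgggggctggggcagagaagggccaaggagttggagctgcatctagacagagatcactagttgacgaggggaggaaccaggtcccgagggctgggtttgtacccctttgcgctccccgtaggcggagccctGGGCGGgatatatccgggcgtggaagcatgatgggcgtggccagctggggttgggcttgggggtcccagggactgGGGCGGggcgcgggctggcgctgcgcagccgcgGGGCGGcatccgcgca
Syt2, the first start, chr1:134646362-134646661, plus strand: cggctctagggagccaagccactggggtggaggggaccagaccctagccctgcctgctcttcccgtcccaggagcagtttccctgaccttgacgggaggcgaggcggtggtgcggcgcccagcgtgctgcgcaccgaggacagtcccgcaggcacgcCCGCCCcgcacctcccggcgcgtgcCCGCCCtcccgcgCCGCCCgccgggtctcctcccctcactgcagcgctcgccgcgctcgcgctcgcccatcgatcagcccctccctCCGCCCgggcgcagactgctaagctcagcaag
Syt2, the second start, chr1:134709050-134709349, plus strand: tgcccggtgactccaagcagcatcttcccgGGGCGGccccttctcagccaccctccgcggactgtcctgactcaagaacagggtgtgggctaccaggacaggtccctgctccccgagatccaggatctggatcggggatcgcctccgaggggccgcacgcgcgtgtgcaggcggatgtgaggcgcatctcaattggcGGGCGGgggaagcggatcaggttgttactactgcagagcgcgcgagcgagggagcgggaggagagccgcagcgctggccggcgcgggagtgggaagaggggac
Sv2c, chr13:96132528-96132827, minus strand: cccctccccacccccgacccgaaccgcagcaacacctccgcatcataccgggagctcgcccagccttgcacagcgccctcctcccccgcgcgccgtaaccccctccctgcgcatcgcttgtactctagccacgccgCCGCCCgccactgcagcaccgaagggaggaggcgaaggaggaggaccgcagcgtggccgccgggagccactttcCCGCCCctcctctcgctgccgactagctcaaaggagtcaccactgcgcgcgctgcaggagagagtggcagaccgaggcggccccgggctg
Unc13c, chr9:73968988-73969287, minus strand: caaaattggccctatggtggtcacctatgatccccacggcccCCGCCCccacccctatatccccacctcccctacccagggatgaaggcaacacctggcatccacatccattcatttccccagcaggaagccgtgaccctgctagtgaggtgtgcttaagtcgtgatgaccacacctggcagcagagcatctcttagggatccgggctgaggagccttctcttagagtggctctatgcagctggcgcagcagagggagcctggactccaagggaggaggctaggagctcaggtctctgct

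The GC box was present in all 5 of these windows, 3 times in Stx1a, 4 and 2 times at the starts of Syt2, 2 times in Sv2c and 1 time in Unc13c. Of the 37 windows of the 30 matched members, 25 held it, while 35.7% of all 32851 promoter windows of 300 bases did. The cyclic AMP response element TGACGTCA was found in the windows of Napa and Syn1 (1.79% of all windows), and TTCAGCACC, the left part of the RE1 element, in those of Syn1 and Unc13a (0.371% of all windows). GGACAG, the right part of RE1, lay in 7 member windows, both starts of Syt2 among them (22.2% of all), and the E box CAGATG in 3, those of Pclo, Rims3 and Syn2 (17.2% of all). The GC content of member windows had a median of 62.3%, against 52.7% over all windows. A match describes the letters only.

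The second question was whether the copy number of the interval changed the expression of the release machinery. No member passed at an adjusted p under 0.05 in any brain tissue, neither for the change in log2 signal per copy, called the slope (Del/+ as -1, wt as 0, Dup/+ as 1) nor for Del/+ or Dup/+ against wt (limma). Over all kept probe sets, the slope was called upward for 0.119% and downward for 0.0155% in the cerebellum, 0.134% and 0.00516% in the striatum and 0.155% and 0.0103% in the hippocampus. The Del/+ against wt comparison called 0% upward and 0.0877% downward in the cerebellum, 0.00516% and 0.098% in the striatum and 0.0155% and 0.103% in the hippocampus, and Dup/+ against wt called 0% and 0%, 0.00516% and 0.00516%, and 0.0516% and 0%. At an unadjusted p under 0.05 the slope counted 5 of 30 members in the cerebellum (6.25% of all kept probe sets), 5 of 30 in the striatum (9.04%) and 1 of 30 in the hippocampus (6.31%). With 1 probe set per gene, the same unadjusted threshold counted 3, 0 and 0 members for Del/+ against wt (4.9%, 3.69% and 6.4% of probe sets) and 0, 2 and 0 for Dup/+ against wt (3.9%, 13% and 4.76%). Of the further probe sets that passed the filter, 1 of Syt4 was under it for Del/+ and 1 of Bsn for Dup/+ (-0.31) against wt, both in the striatum.

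On the probe sets used, the slopes of the 37 members lay between -0.28 and 0.17 in the cerebellum, -0.21 and 0.34 in the striatum and -0.10 and 0.37 in the hippocampus. The further probe sets reached 0.21 in the cerebellum (Bsn) and -0.26 in the striatum (Syt4). The median size of the slopes over the 30 kept members was 0.064, 0.058 and 0.027, against 0.065, 0.072 and 0.056 over all kept probe sets. The 95% interval of the slope stayed within 0.5 of zero, about the slope of the interval genes themselves, for 36, 35 and 35 of 37 members, and within 0.25 for 28, 26 and 33. The exceptions at 0.5 were Syt5 in the cerebellum, Vamp1 and Rims3 in the striatum and Syt9 and Unc13c in the hippocampus.

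**Figure D3:**
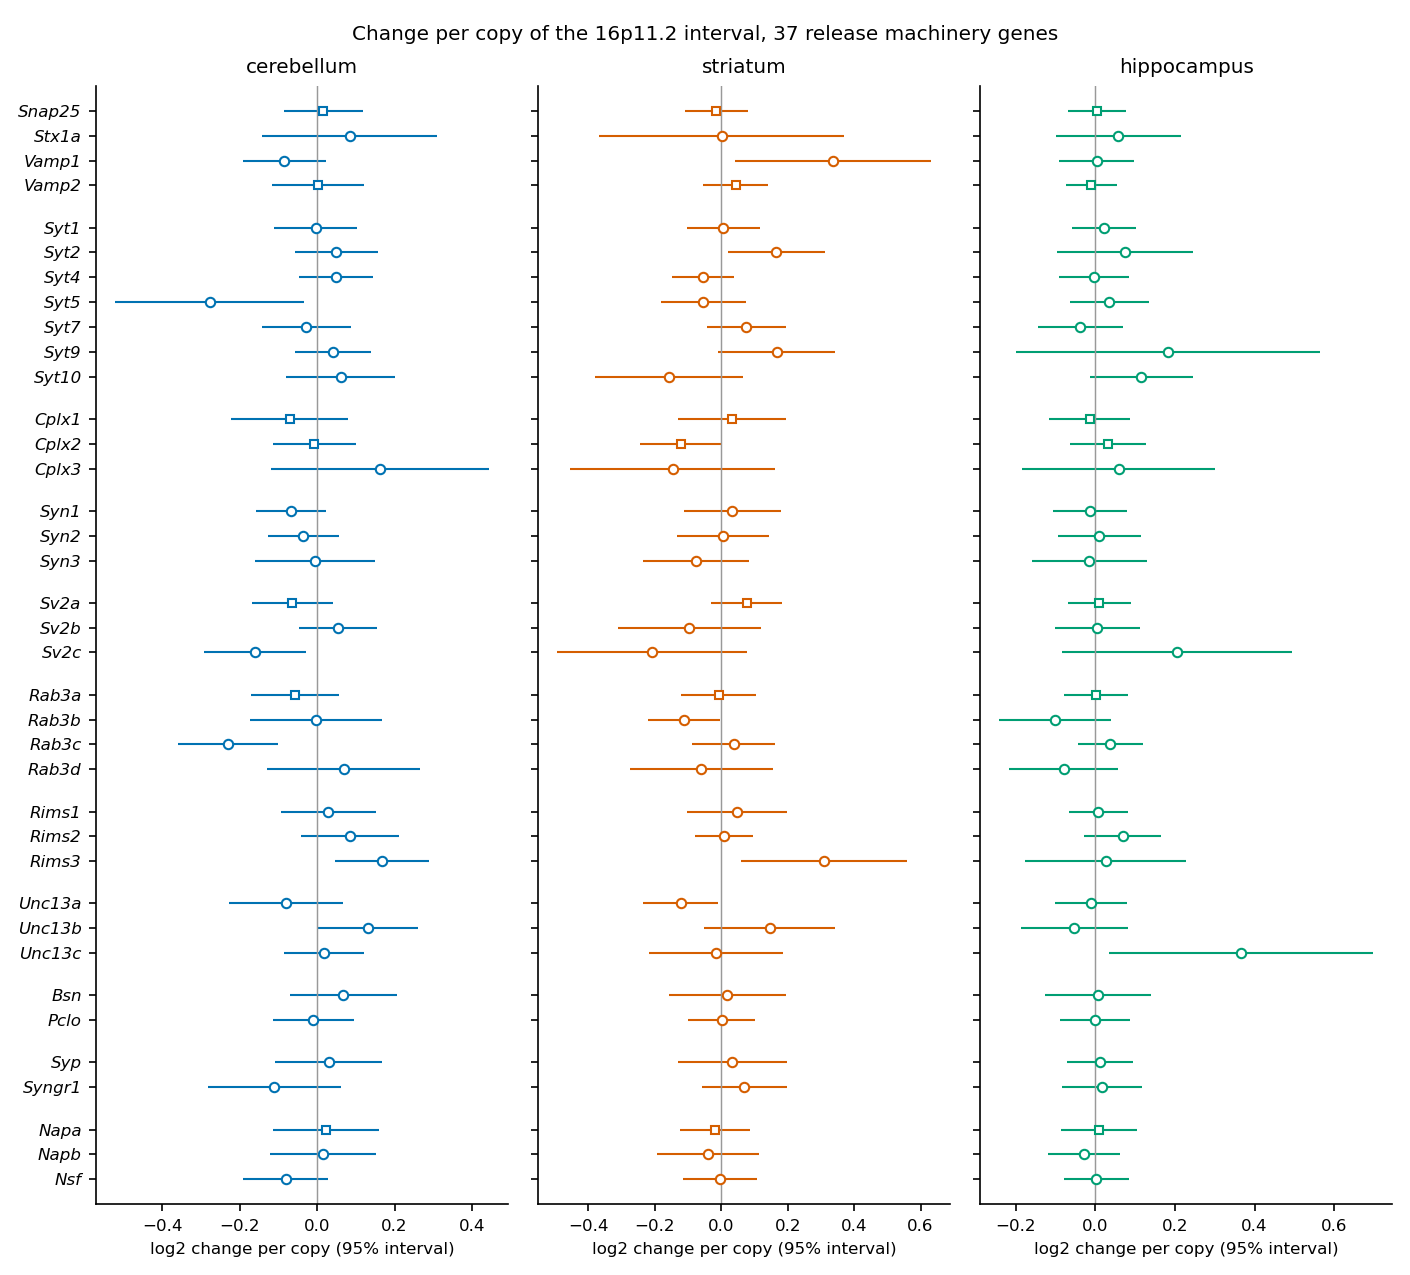
Change in log2 signal per copy of the interval for each of the 37 genes in the cerebellum (n = 12 arrays), striatum (n = 16) and hippocampus (n = 16), with 95% intervals. No gene passed at an adjusted p under 0.05, so that all markers are open, with squares for the 7 genes that the filter left out; the highest slopes are those of Unc13c in the hippocampus (0.37) and Vamp1 in the striatum (0.34).

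In the cerebellum, Rab3c had the smallest p. It measured 9.32, 9.27 and 9.25 in Del/+, 8.78, 8.79 and 8.91 in Dup/+, and 8.83 to 9.35 (median 9.01) in wt. The Del/+ and Dup/+ arrays did not overlap, and the wt arrays reached above all Del/+ values and below 1 of the Dup/+ values. The slope was -0.23 ± 0.06 (adjusted p = 0.441). Rims3 measured 8.34, 8.34 and 8.46 in Del/+, 8.64, 8.74 and 8.76 in Dup/+ and 8.31 to 8.66 (median 8.53) in wt, with a slope of 0.17 ± 0.06 (adjusted p = 0.659). Sv2c measured 7.66, 7.79 and 7.59 in Del/+, 7.60, 7.32 and 7.16 in Dup/+ and 7.32 to 7.57 (median 7.41) in wt, with a slope of -0.16 ± 0.06 (adjusted p = 0.714). None of the 3 passed, nor did Syt5 (-0.28 ± 0.11, adjusted p = 0.746) or Unc13b (0.13 ± 0.06, adjusted p = 0.785).

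In the striatum, the 3 members of smallest p on the probe sets used here were Rims3, Vamp1 and Syt2. Rims3 and Vamp1 were high on Dup/+ 21 and Dup/+ 47, the arrays with low striatal and high thalamic markers. Rims3 measured 7.62, 7.10, 7.43 and 7.27 in Del/+, and 7.40 and 7.63 on Dup/+ 19 and 54, against 8.69 and 8.18 on Dup/+ 21 and 47, while wt arrays ran from 7.17 to 7.89 (median 7.34). Its slope was 0.31 ± 0.12 (adjusted p = 0.478), and without Dup/+ 21 and 47 it was 0.074 ± 0.087 (adjusted p = 0.947). Vamp1 measured 8.81, 8.32, 9.16 and 8.75 in Del/+, and 8.76 and 8.99 on Dup/+ 19 and 54, against 10.24 and 9.74 on Dup/+ 21 and 47, with 8.53 to 9.01 (median 8.66) in wt. The slope of Vamp1 was 0.34 ± 0.14 (adjusted p = 0.502) and 0.040 ± 0.096 (adjusted p = 0.98) without these 2 arrays. Over all alternatives the adjusted p of the slope was 0.334 to 0.947 for Rims3 and 0.334 to 0.98 for Vamp1. In Dup/+ against wt its difference was 0.71 ± 0.22 (adjusted p = 0.258), and leaving out Dup/+ 19, which lets the other 3 arrays set the mean, brought it to 0.93 ± 0.22 (adjusted p = 0.0459), the only call of a member for genotype under the settings tried.

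Syt2 measured 7.12, 7.15, 7.44 and 7.62 in Del/+, 7.57, 7.97, 7.72 and 7.39 in Dup/+ and 7.31 to 7.80 (median 7.50) in wt striatum, with a slope of 0.17 ± 0.07 (adjusted p = 0.502), and 0.095 ± 0.076 (adjusted p = 0.905) without Dup/+ 21 and 47. Unc13a (-0.12 ± 0.05, adjusted p = 0.512) and Rab3b (-0.11 ± 0.05, adjusted p = 0.546) leaned the other way. So did a further probe set of Syt4, of lower signal (mean of 4.64 over the brain arrays), whose slope was -0.26 (adjusted p = 0.521 without the filter) with a smaller unadjusted p than these 5 genes; it was 0.45 higher in Del/+ than in wt striatum (adjusted p = 0.982), while the main Syt4 probe set had a slope of -0.06. Choroid plexus markers averaged 4.93 to 7.69 on the Del/+ striatal arrays, 7.24 to 7.91 on the Dup/+ ones and 5.35 to 7.28 on the wt ones. Cortical neuron markers were highest on Dup/+ 21, at 8.90, against 7.13 to 8.53 on the other striatal arrays. The part of thalamic, cortical or choroid plexus tissue in these values was not tested beyond leaving out the arrays.

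**Figure D4:**
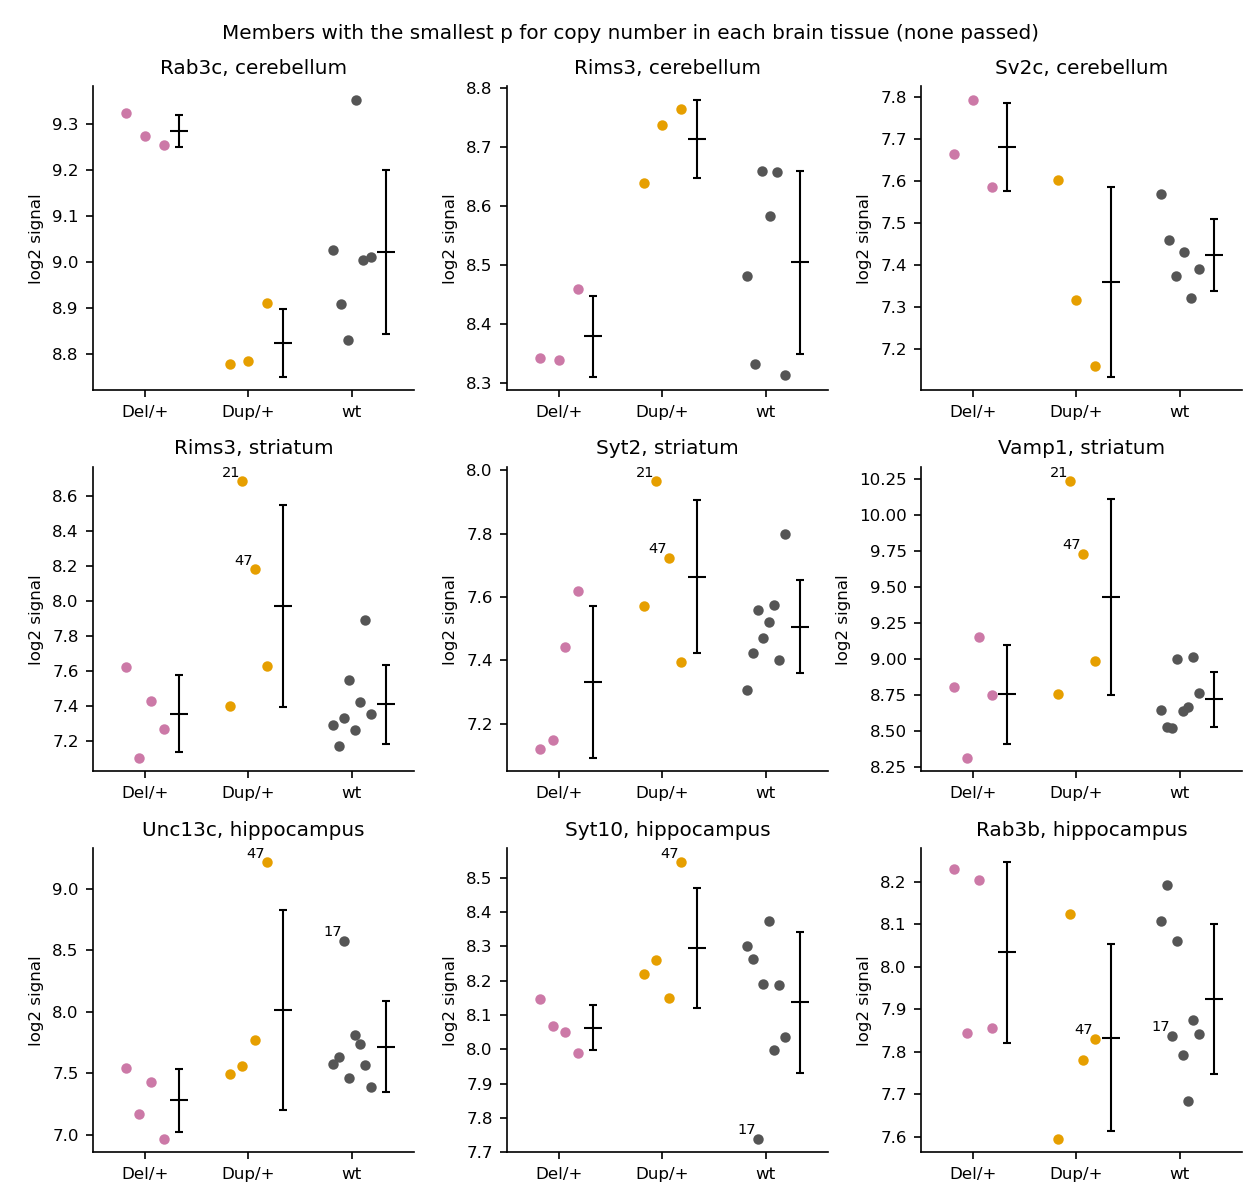
Log2 signal on each array by genotype for the 3 genes of smallest p for copy number in the cerebellum (top row), striatum (middle row) and hippocampus (bottom row), with mean and SD as the black bar. Numbers mark Dup/+ 21 and 47 in the striatum and Dup/+ 47 and wt 17 in the hippocampus; in the striatum the high Rims3 and Vamp1 values are on Dup/+ 21 and 47.

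In the hippocampus, Unc13c measured 7.54, 7.17, 7.43 and 6.97 in Del/+, 7.50, 7.56, 7.77 and 9.22 in Dup/+, and 7.39 to 8.58 (median 7.60) in wt. The value of 9.22 was on Dup/+ 47, whose striatal markers were high, and Unc13c is a gene with higher signal in striatum than in hippocampus. Its slope was 0.37 ± 0.16 (adjusted p = 0.744), and 0.19 (adjusted p = 0.929) without Dup/+ 47. The same array had Sv2c at 8.58, against 6.66 to 7.32 on the other 15 arrays, and the slope of Sv2c was 0.21 ± 0.14 (adjusted p = 0.871). Syt10 measured 8.15, 8.07, 8.05 and 7.99 in Del/+, 8.22, 8.26, 8.15 and 8.55 in Dup/+ and 7.74 to 8.37 (median 8.19) in wt, with a slope of 0.12 ± 0.06 (adjusted p = 0.832), or 0.073 (adjusted p = 0.952) without Dup/+ 47. The part of striatal tissue in the values of that array was not tested beyond leaving it out. Rab3b measured 8.23, 7.84, 8.21 and 7.86 in Del/+, 7.60, 8.13, 7.78 and 7.83 in Dup/+ and 7.68 to 8.19 (median 7.86) in wt, with a slope of -0.10 ± 0.07 (adjusted p = 0.871).

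**Figure D5:**
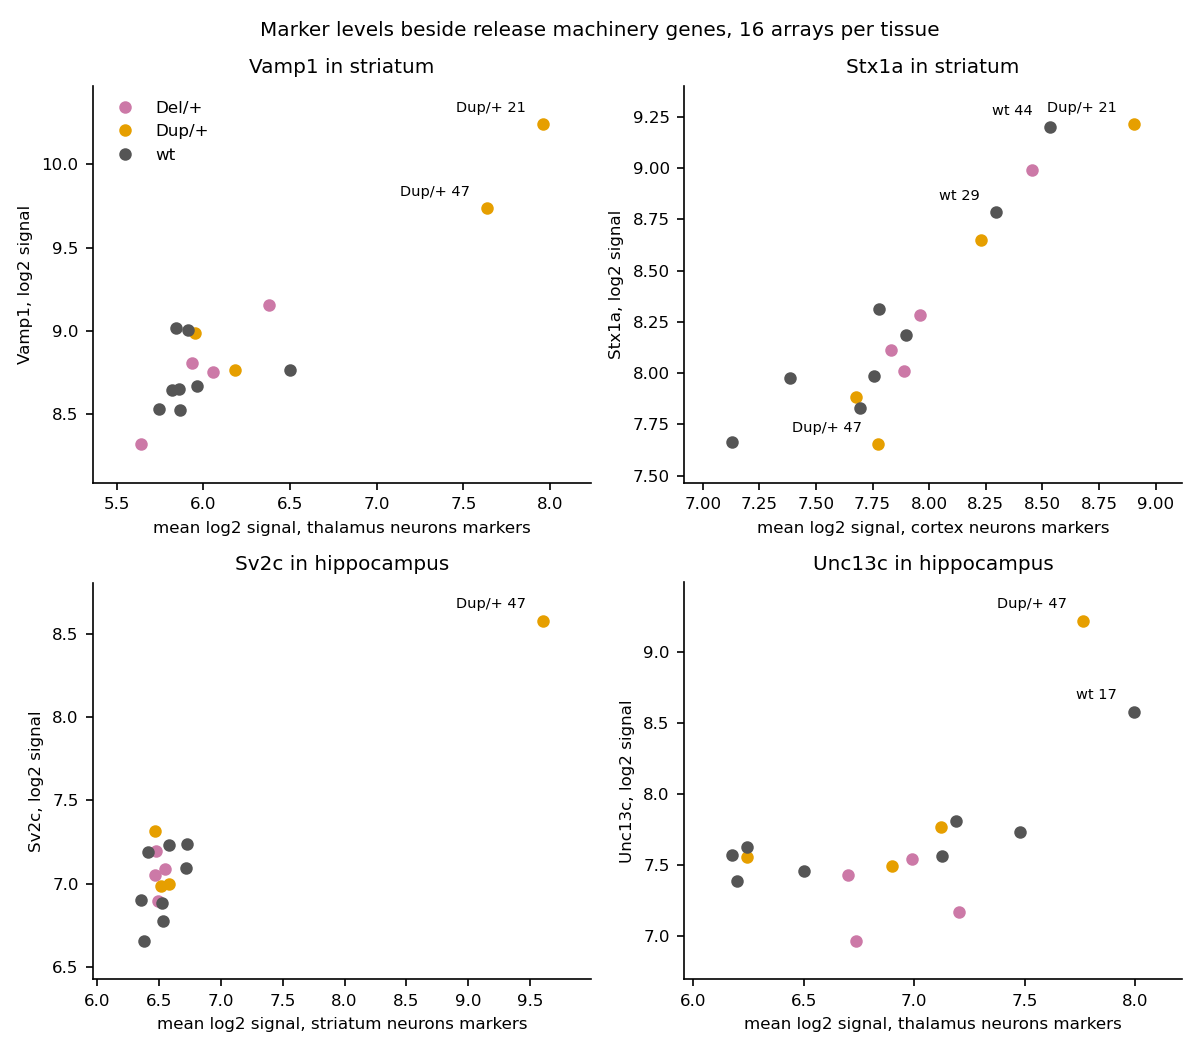
Log2 signal of 4 genes against the mean log2 signal of a marker list on the same array, 16 arrays per tissue coloured by genotype. Vamp1 in the striatum is high on Dup/+ 21 and 47, which have thalamic markers at 7.96 and 7.63. Sv2c in the hippocampus is high on Dup/+ 47, with striatal markers at 9.60. Stx1a in the striatum is 9.20 on wt 44, the wt array with the highest cortical markers (8.53).

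Slopes were also compared between tissues. No member had a copy number slope that differed between brain tissues at an adjusted p under 0.05, where 0% upward and 0% downward of all kept probe sets did so for cerebellum against hippocampus, 0% and 0% for striatum against hippocampus, and 0.0103% and 0.0103% for cerebellum against striatum. At an unadjusted p under 0.05 the counts were 2, 5 and 4 of 30 members, where 4.25%, 7.67% and 8.07% of all kept probe sets passed. In the liver, 22 members passed the filter and none had a slope at an adjusted p under 0.05 (0.079% of kept probe sets upward and 0.00527% downward), with 2 at an unadjusted p under 0.05 (7.19%).

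Other genes of release and of vesicle traffic were followed for comparison, 59 of 62 with a probe set of their own and 42 past the filter. Prrt2, which lies in the interval and encodes a presynaptic SNARE-binding protein, was the only one to pass for copy number, with slopes of 0.62 ± 0.07 in the cerebellum (adjusted p = 0.00145), 0.67 ± 0.08 for striatal arrays (adjusted p = 0.000213) and 0.59 ± 0.05 in the hippocampus (adjusted p = 3.02e-06). The next smallest p was that of Synpr, which encodes synaptoporin, in the cerebellum (0.31 ± 0.06, adjusted p = 0.121), Erc2 in the striatum (-0.16 ± 0.06, adjusted p = 0.464) and Syngr3 in the hippocampus (-0.15 ± 0.04, adjusted p = 0.313), and none of these passed. Doc2a also lies in the interval and, according to the paper, encodes a vesicle-associated calcium-binding protein, but it was not on this list. The list therefore does not cover every release gene of the interval.

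Between wt tissues, 13 of the 42 were higher and 21 lower in cerebellum than in hippocampus, 8 and 26 in striatum than in hippocampus, and 18 and 19 in cerebellum than in striatum. The shares of all kept probe sets were 33.4% and 26.8%, 15.2% and 16.4%, and 33.7% and 26.8%. The largest differences in cerebellum minus hippocampus were those of Rimbp2 (-3.50), which encodes the RIM-binding protein 2 of the active zone, Syt17 (-3.35), Syt16 (-2.97) and Stxbp6 (-2.72). In striatum minus hippocampus they were Syt6 (2.54), Syt17 (-1.80), Cadps2 (-1.28), which encodes a priming factor of dense-core vesicles, and Ppfia2 (-1.26), which encodes liprin-alpha-2. In cerebellum minus striatum they were Rimbp2 (-3.26), Cadps2 (2.995), Syt16 (-2.78) and Syt6 (-1.97). Rimbp2 was low in the cerebellum, where all 3 RIM genes of the member list were high.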

How the data were processed

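RNA of 44 brain and 12 liver samples was measured on 1-colour arrays. The deposited log2 values were made by the authors with Affymetrix Expression Console and quantile normalized over the brain and the liver arrays separately; the background correction and probe summary are not given in the sources used here, and the log2 scale was taken from the range of the values (0.57 to 13.57). All sample columns were mapped by their labels. Of 41155 probe sets, 23525 list 1 gene, 1816 several and 15814 none in the platform annotation, and where a member had several of its own the one with the highest mean over brain was used. The filter of the study's methods kept a probe set whose maximum over the arrays was at least the median signal and whose variance exceeded the 25th percentile (19389 in brain, 18982 in liver). Slopes, genotype contrasts and wt tissue contrasts were fitted with limma 3.58.1 in R 4.3.3 (lmFit and eBayes, two-sided, Benjamini-Hochberg over all kept probe sets, threshold 0.05), and 95% intervals use the moderated degrees of freedom. The fits were run on simulated data with planted effects and independent normal noise, which lacks deviations shared by the genes of an array. No result of the report rests on that simulation. Exact permutations ran in Python 3.11.15 with scipy 1.17.1, and figures in matplotlib 3.10.9.

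Each array is 1 mouse and tissue, and p-values measure the spread between these arrays. Replicate arrays of a group correlated at 0.978 to 0.989. Ranges over the arrays are given for the 3 members with the largest called difference in each wt tissue contrast. They are also given for members of a family that went opposite ways. For the 3 members of smallest p for copy number in each brain tissue, carrier values are given per array and wt values as ranges. Of the other release genes, those with the 4 largest called differences and the 2 smallest p are given. Members, lists, markers and tests were chosen with earlier results of these data known, so none is independent of them. The alternatives were no filter, a filter within the tissue, another coding of copy number, renewed quantile normalization, a variance trend, the array number block (1 to 24, 25 to 48, 49 to 72), all genotypes in the tissue fit, the mouse number as replicate block, and each array left out in turn. The settings without groups of arrays picked by their marker levels were chosen after seeing the data.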

Additional observations from a re-analysis of the deposited data

Results flagged for a closer look

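Of 296 groups of 4, 6 or 8 arrays tested for a single array far from the rest, 21 had one, and so had 2 of 18 groups of marker list means. Chance gives such an array in about 1 in 20 groups. In the hippocampus, Dup/+ 47 had Unc13c at 9.22 (others 7.50 to 7.77), Bsn at 8.49 (others 8.95 to 8.997) and Napa at 8.97 (others 9.24 to 9.28), and its striatal neuron markers averaged 9.60 (others 6.47 to 6.58). The wt 17 array of the hippocampus had Unc13c at 8.58 (others 7.39 to 7.81).

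In the striatum, Dup/+ 21 had Snap25 at 12.76 (others 12.54 to 12.57), Syt10 at 7.83 (others 8.69 to 8.86) and Syn1 at 11.02 (others 10.64 to 10.68), and Dup/+ 19 had Syp at 10.22 (others 10.71 to 10.75). Among Del/+ striata, Sv2a was 10.51 in mouse 28 (others 10.41 to 10.42) and Sv2c 9.13 in mouse 7 (others 9.56 to 9.64). Among wt striata, Rab3b was 7.85 in mouse 48 (others 8.05 to 8.19), and the thalamic neuron markers of the same array averaged 6.50 (others 5.74 to 5.96).

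Hippocampus wt 16 had Syn1 at 11.22 (others 10.84 to 11.01), Rims1 at 9.68 (others 9.47 to 9.56) and Bsn at 9.18 (others 8.57 to 8.80), and Bsn was 8.91 in hippocampus Del/+ 23 (others 8.80 to 8.82). In wt cerebellum, Syt1 was 11.45 in mouse 10 (others 11.203 to 11.28), Syt2 9.92 in mouse 20 (others 9.76 to 9.82) and Rab3c 9.35 in mouse 25 (others 8.83 to 9.03). Cerebellum wt 49 had Unc13a at 9.01 (others 9.28 to 9.37) and Bsn at 8.14 (others 8.49 to 8.68), and the liver array of wt 49 had Nsf at 7.04 (others 6.72 to 6.82).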

How the results depend on the processing

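Of 361 alternative values of the counts of members called, 359 stayed within 1.5 times the count given in the report, and for single members, run only for those with a called difference of at least 1 between tissues and the 3 of smallest p for copy number in each brain tissue, all 805 alternative values kept their direction and their side of the threshold. Members nearer the threshold were not run singly, and some lost their call in the lower counts below. The exceptions were 1 member called, Vamp1, in Dup/+ minus wt striatum without Dup/+ 19 (leaving out each array in turn gave 0 to 1), and 4 members, against 2, called with a difference of at least 1 in wt striatum minus wt hippocampus without hippocampus wt 17 and 44 and striatum wt 29 and 44, a setting chosen after seeing the data. The cause was not tested. Leaving out each wt array in turn gave 26 to 28 members called in cerebellum minus hippocampus (9 to 10 with a difference of at least 1), 23 to 24 in striatum minus hippocampus (2 to 3) and 23 to 25 in cerebellum minus striatum (10 to 11). With the mouse number as replicate block, 28, 23 and 24 members were called in the 3 tissue contrasts, 10, 2 and 10 of them with a difference of at least 1, and 0 for any difference between slopes, the same counts as without it. Whether arrays of the same number come from the same mouse was not settled. Deviations of 23 same-number pairs correlated at a median of 0.019 (-0.118 to 0.095), and 0 pairs were over 0.1. The highest value was that of number 17, whose cerebellar and hippocampal arrays differ in genotype, while all other same-number pairs shared a genotype. Such a correlation therefore cannot decide whether mice were shared. With 3 or 4 arrays of each carrier genotype per tissue, genotype differences smaller than the intervals given in the report allow could not be detected.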
